A study of Mus musculus with 12 samples.

Results

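The comparison described here asks what became of BRD3 binding in RANKL-treated RAW264.7 cells when the bromodomain inhibitor I-BET was present as well. It takes the BRD3 ChIP-seq regions called with RANKL (3840) and those called with RANKL plus I-BET (2842), in all 6682 of the 16188 regions in the 8 lists analysed. A RANKL region was called kept when it overlapped a region of the other list by at least 1 bp and lost when it did not. Regions with both agents were called shared or gained by the same rule. RAW264.7 is an established mouse macrophage line that can form osteoclasts. RANKL was given at 50 ng/ml and I-BET at 500 nM, each for 4 h. The lists from untreated cells and from cells with I-BET alone, and those for BRD2, serve only to describe the regions. There is 1 library per antibody and treatment, so no difference below has a replicate check and no test between treatments was possible. The intervals given are exact (Clopper-Pearson) 95% binomial intervals and cover counting error only. No read counts come with the lists, and the depth behind them is therefore not known.

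BRD3 belongs to the BET family, whose members use bromodomains to hold acetylated histones near promoters and enhancers, where they help bring in the machinery of transcription elongation. I-BET occupies the acetyl-lysine pocket of those bromodomains. RANKL is the cytokine that turns macrophage precursors into bone-resorbing osteoclasts through its receptor RANK, NF-κB, AP-1 factors and NFATc1. Wide stretches of BET binding are known to mark the genes that set a cell's identity, and in macrophages these include the gene for the transcription factor PU.1.

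The marker genes of the labelled cell type were checked first. Of 12 macrophage markers, 8 had a BRD3 region within 1 kb of a gene end with RANKL (Spi1, Csf1r, Cd14, Cd68, Lyz2, Tyrobp, Fcer1g and Cebpb). No region lay at any of 9 lymphocyte, 7 fibroblast and osteoblast, 3 endothelial or 5 erythroid and megakaryocyte markers in any of the 4 BRD3 lists. Of the longer erythroid and megakaryocyte list, Tal1 had a region of 680 bp with RANKL. With I-BET added, 2 of the 12 macrophage markers had a region, Fcer1g and Cebpb.

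Promoter sequences are shown for 4 genes that stand for the patterns below: 3 whose promoter window held a RANKL region and no region with I-BET added (Lyz2, Tnf and Nfkbia), and 1 where it held both (Cebpa). Each is the stretch of 150 bases before the start listed in RefSeq (GRCm38.p6), with matches to any of 9 motifs, named with the promoter results, in capitals. The stretches of Lyz2, Tnf and Cebpa lay inside the RANKL region. The RANKL region at Nfkbia, chr12:55491514-55492615, ended within the first 50 bases after the start.
Lyz2, chr10:117282273-117282422, minus strand: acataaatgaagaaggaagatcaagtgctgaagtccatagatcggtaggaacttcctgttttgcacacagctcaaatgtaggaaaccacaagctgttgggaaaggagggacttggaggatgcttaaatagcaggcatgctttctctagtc
Tnf, chr17:35202008-35202157, minus strand: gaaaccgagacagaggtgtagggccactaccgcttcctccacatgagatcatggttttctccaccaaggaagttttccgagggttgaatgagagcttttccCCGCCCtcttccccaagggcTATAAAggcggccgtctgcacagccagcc
Nfkbia, chr12:55492648-55492797, minus strand: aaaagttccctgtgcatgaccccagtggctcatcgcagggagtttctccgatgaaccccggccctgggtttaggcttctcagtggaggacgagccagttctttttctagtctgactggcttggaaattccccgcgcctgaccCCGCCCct
Cebpa, chr7:35119143-35119292, plus strand: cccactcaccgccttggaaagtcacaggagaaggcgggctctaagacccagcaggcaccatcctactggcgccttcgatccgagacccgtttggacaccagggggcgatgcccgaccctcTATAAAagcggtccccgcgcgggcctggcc
The Lyz2 stretch held none of the motifs and 1 CpG in 150 bases, with a GC share of 44.0%. The Tnf and Nfkbia stretches each held 1 GC box (GGGCGG, read here from the other strand as CCGCCC), Tnf and Cebpa each held a TATAAA, and the Cebpa stretch had 12 CpGs.

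With I-BET added, wide BRD3 regions were mostly absent, at macrophage genes and elsewhere, while narrow regions at gene ends mostly stayed. In all, 2474 of the 3840 RANKL regions (64.4%, interval 62.9 to 65.9) were kept and 1366 were lost, which is 35.6% of the list. Of the 2842 regions with both agents, 366 were gained (12.9%, 11.7 to 14.2). The 2 lists overlapped one to one almost throughout: 3 RANKL regions met 2 regions of the other list, and 1 region with both agents met 2 RANKL regions. No lost region had a region with both agents within 1 kb, so none was lost by a shift under that distance.

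The loss was larger in bases than in regions. RANKL regions covered 3705 kb and regions with both agents 1819 kb. Lost regions held 47.0% of the bases under RANKL, and 40.1% of the RANKL bases lay inside a region of the other list. Seen from the other side, 81.6% of the bases with both agents lay inside RANKL regions, and gained regions held 11.3%. The median width was 679 bp with RANKL and 571 bp with both agents. Regions over 2 kb numbered 325 with RANKL and 12 with I-BET added, and those over 3 kb numbered 130 and 1.

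Lost regions were wider than kept ones and did not have lower scores. Their median width was 827 bp against 649.5 bp for kept regions, and 253 of the 1366 lost regions were over 2 kb against 72 of the 2474 kept. The authors' score was compared only within a list. From the lowest to the highest quartile of the RANKL list by score, 61.8%, 67.5%, 65.0% and 63.4% of regions were kept. Gained regions were narrow, with a median of 507 bp against 580.5 bp for shared regions. They made up 18.1% of the lowest-scoring quartile of the list with both agents and 9.85% of the highest-scoring one.

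The share kept went with width. Among RANKL regions of 600 to 800 bp (the upper bound of each class left out), 81.5% were kept. The share was 57.3% at 1000 to 1500 bp, 41.2% at 1500 to 2000 bp, 26.7% at 2000 to 3000 bp and 15.4% at 3000 bp and over (20 of 130). In the narrowest class, under 400 bp, it was 32.1%. Because the classes were set on RANKL widths, the untreated list is given beside them. The share of RANKL regions with an untreated counterpart was 80.1% at 600 to 800 bp, 69.7% at 1000 to 1500 bp, 62.1% at 2000 to 3000 bp and 78.5% at 3000 bp and over. So the widest RANKL regions were found again in untreated cells about as often as narrow ones, and were found seldom with I-BET added. Both of these comparisons use the same RANKL library.

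**Figure D1:**
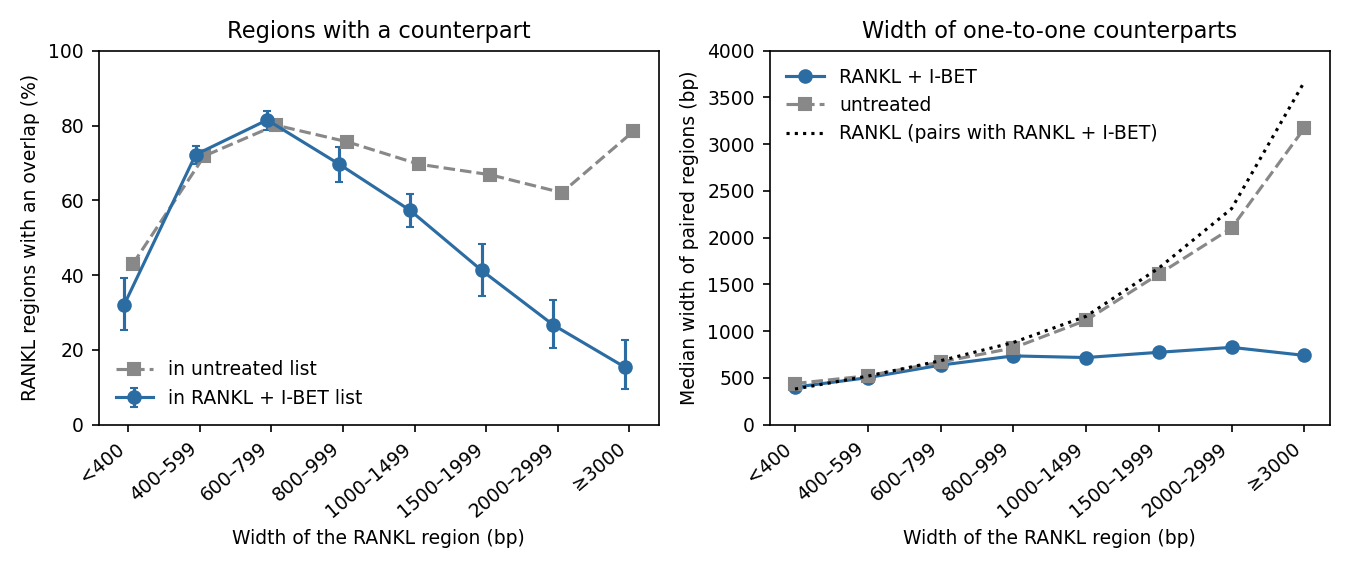
BRD3 regions called with RANKL, in classes of width (x axis, bp). Left, the share (%) that overlaps a region with RANKL plus I-BET (circles, with exact 95% binomial intervals) or an untreated region (squares); right, the median width (bp) of one-to-one counterparts. At 3000 bp and over, 15.4% had a counterpart with I-BET added and 78.5% in untreated cells, and the counterparts had median widths of 741 bp and 3170.5 bp.

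Where a wide region was kept, what stayed was mostly narrower. In 2469 one-to-one pairs the median ratio of the width with both agents to the width with RANKL was 0.932 (order-statistic 95% range 0.924 to 0.941), and 1643 pairs were narrower with I-BET. A narrowing of more than 1.5 times was seen in 402 pairs, 16.3% of all, and a widening of that size in 61, or 2.47%. Of the 68 pairs whose RANKL region was 2 kb or wider, 59 were narrower by more than 1.5 times. For RANKL regions of 1000 to 1500 bp the median counterpart with I-BET was 718 bp, for 2000 to 3000 bp it was 827 bp, and for 3000 bp and over 741 bp. The counterparts in untreated cells had medians of 1116 bp, 2103 bp and 3170.5 bp in the same classes. The median width left with I-BET was thus about the same, 718 to 827 bp, in each width class above 1 kb. Single pairs varied widely: in the 442 pairs of 1 kb and over, 329 to 6077 bp was left. Of these 442, 276 were narrower by more than 1.5 times, and some kept nearly their full width. In the 2744 one-to-one pairs of RANKL with untreated regions, 8.05% were narrower in untreated cells by more than 1.5 times and 11.7% were wider.

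**Figure D2:**
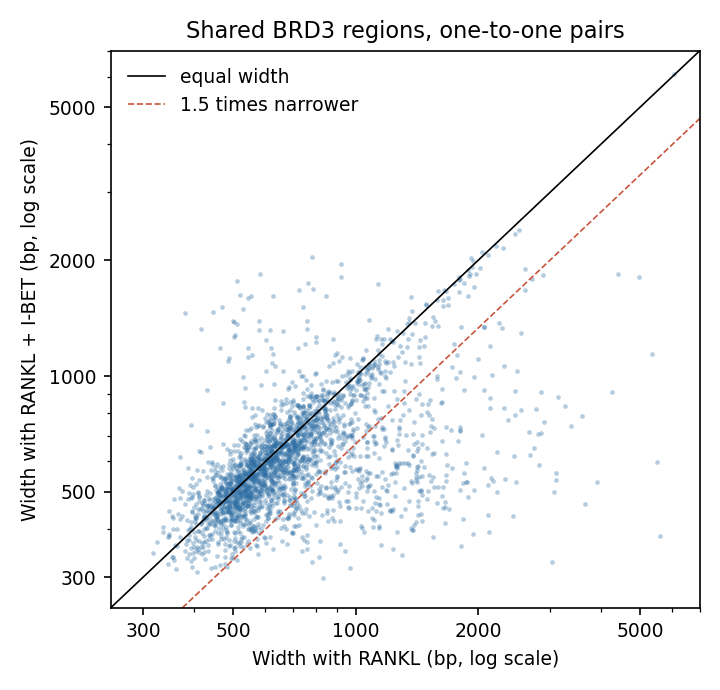
Width of each of 2469 one-to-one pairs of BRD3 regions with RANKL (x axis, bp, log scale) and with RANKL plus I-BET (y axis, bp, log scale). Many points follow the line of equal width, and 402 lie below the dashed line that marks a narrowing of 1.5 times; the point at the upper right is the pair of 6054 and 6077 bp.

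The narrowed regions named below show how much was left. At Lcp1, which encodes the leukocyte actin-bundling protein L-plastin, a region inside the gene went from 5490 to 599 bp. At Itga4, an integrin gene, 466 of 3667 bp remained, and at Arhgdib 329 of 3034 bp. Inside Rbpj, the gene for the DNA-binding factor of Notch signalling, 1811 of 4961 bp remained. At Actb (β-actin) the region was 4398 bp with RANKL and 1838 bp with both agents, and the latter reached past the edge of the RANKL region on the side of the gene. Of 17 pairs with a RANKL region over 3 kb, 16 were narrower by more than 1.5 times. The exception, chr17:39842886-39848939, was 6054 bp with RANKL and 6077 bp with both agents. It overlaps an end of the gene record AY036118 (chr17:39848112-39898385), but most of it lies outside that record. The region was in neither the untreated nor the I-BET list, so it was called in both lists with RANKL and in neither without. Whether its reads map to a single place was not checked, so the call is uncertain.

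At pairs near a listed gene start, the median inward shift was about the same for the upstream and the downstream edge. Medians over pairs do not show that the edges of a single pair moved alike. At Hexim1, described below, only the upstream edge moved in. In 1739 such pairs the upstream edge moved in by a median of 17 bp and the downstream edge by 19 bp. In the 38 pairs of 2 kb and over the medians were 536.5 bp and 554.5 bp. In 28 of those 38, the listed start lay inside the region that remained. At Hexim1, an inhibitor of the elongation kinase P-TEFb, the RANKL region of 2223 bp lay before the gene and reached its start, and the 634 bp that remained (chr11:103115855-103116488) lay over the start. At Brd2, itself a BET gene, 1 RANKL region of 3851 bp was met by 2 regions with I-BET added, of 1182 bp and 2174 bp. The plot of 6 loci shows these cases.

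**Figure D3:**
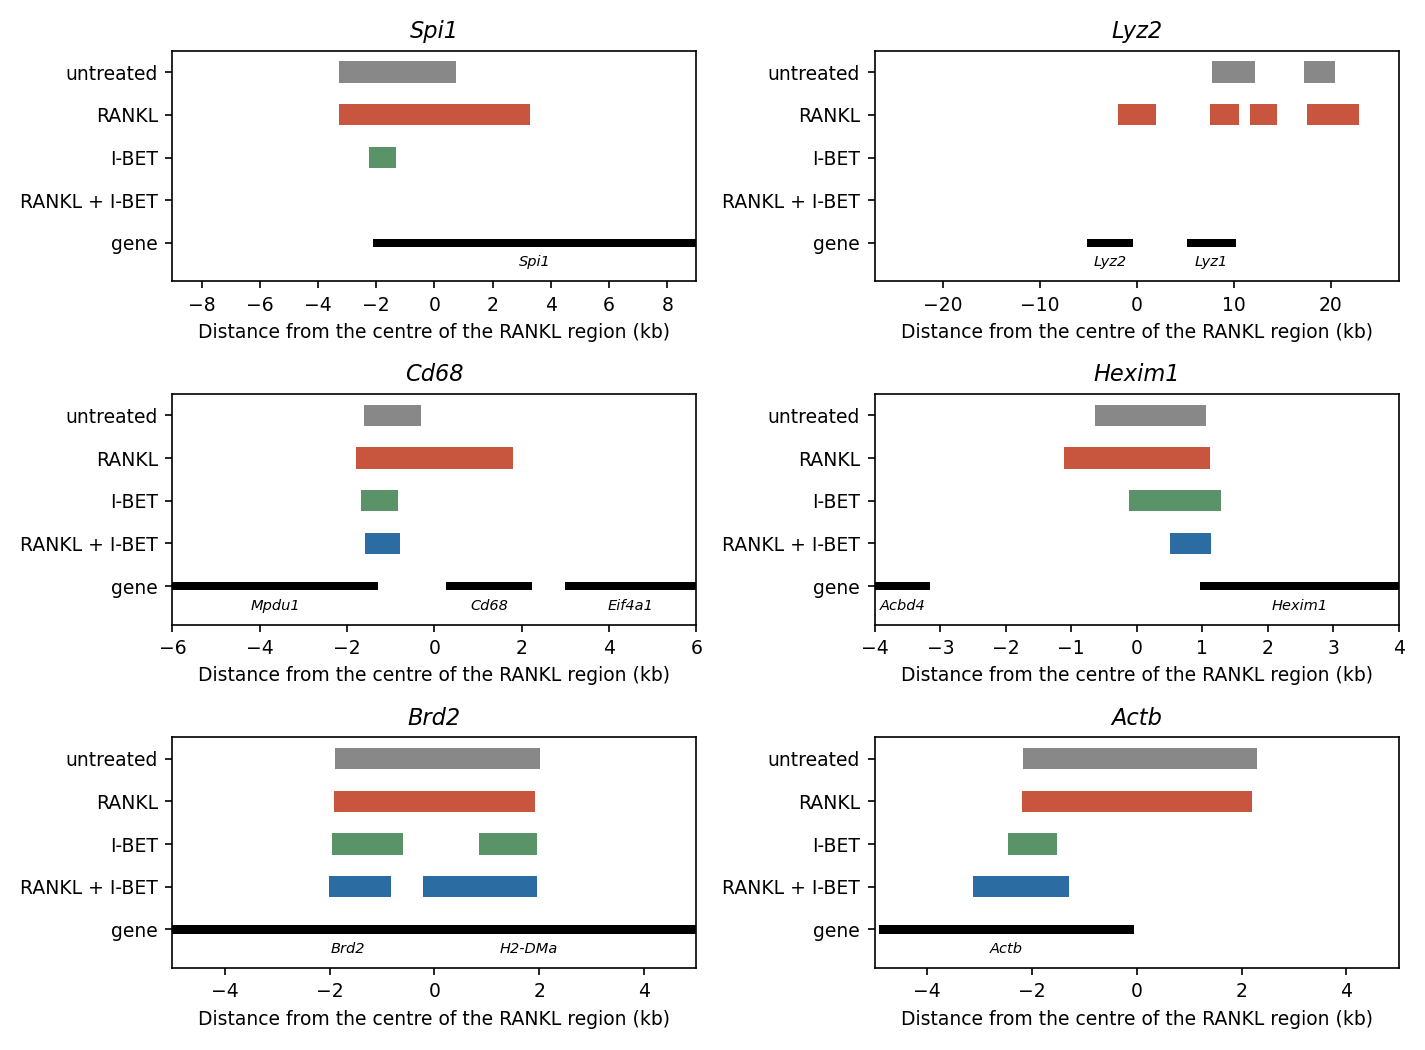
BRD3 regions at 6 loci in the 4 BRD3 lists (bars, 1 row per treatment), with protein-coding gene records in black below; the x axis is the distance in kb from the centre of the RANKL region, and each panel has its own scale. Spi1 and the Lyz2 to Lyz1 stretch have no region with RANKL plus I-BET, and Cd68, Hexim1, Brd2 and Actb have regions narrower than with RANKL alone.

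Lost regions lay at gene ends less often than kept ones. Regions were sorted by their centre: at a gene end if it fell no more than 1 kb from an end of a protein-coding gene, else in a gene body or between genes. Of kept regions 74.3% were at gene ends, of lost regions 38.5% and of gained regions 69.4%. The share between genes was 10.3%, 33.8% and 11.5% in the same order. The median distance from the nearest listed gene start was 160 bp for kept, 5812 bp for lost and 153 bp for gained regions.

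Position and width both went with loss. Under 1 kb, 78.6% of regions at gene ends, 62.8% in gene bodies and 51.9% between genes were kept. At 2 kb and over the shares were 55.9% (38 of 68), 16.7% (18 of 108) and 10.7% (16 of 149). The same wide regions had an untreated counterpart in 72.1%, 65.7% and 69.1% of cases. A region of 1 kb or more within 1 kb of a listed start was kept in 72.1% of cases, one 10 to 100 kb away in 22.4% and one more than 100 kb away in 11.9% (8 of 67). In untreated cells a counterpart was found for 82.3%, 56.8% and 59.7% of these. Under 1 kb the share kept did not fall steadily with distance: it was 78.8% within 1 kb of a start, 62.2% at 1 to 10 kb, 55.1% at 10 to 100 kb and 70.4% (112 of 159) farther away. At gene ends, a window at the listed start lost its region in 22.3% of 2358 genes, and one at the other end in 37.4% of 214.

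**Figure D4:**
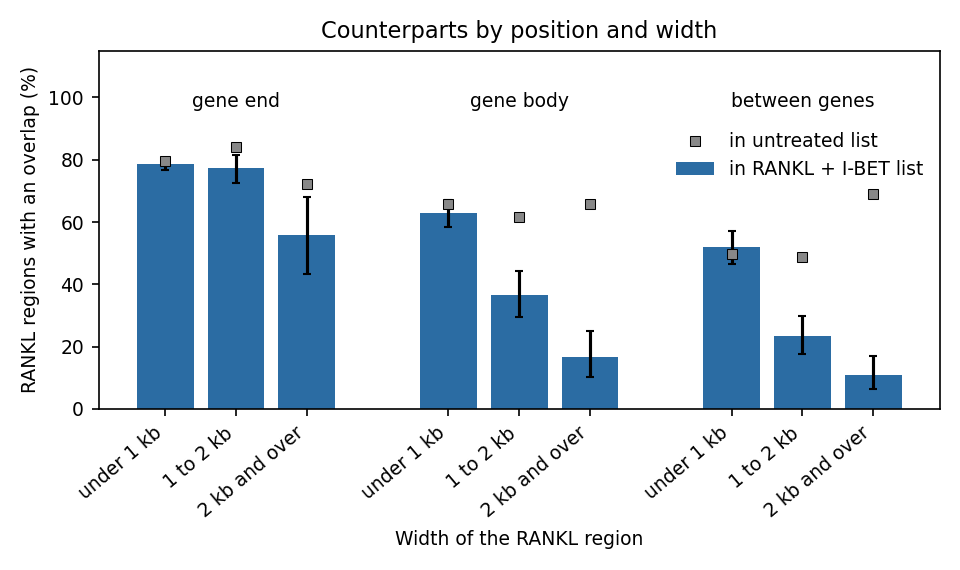
Share (%) of RANKL regions that overlap a region with RANKL plus I-BET (bars, with exact 95% binomial intervals) or an untreated region (squares), by position of the region's centre and by its width. Between genes, 51.9% of regions under 1 kb and 10.7% of those of 2 kb and over were kept, while at gene ends the shares were 78.6% and 55.9%.

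Regions with close neighbours were kept less often than those without. RANKL regions with another RANKL region within 5 kb were kept in 32.3% of 254 cases, against 66.7% of 3586 regions without one. With regions of 1 kb and over alone, the shares were 17.3% and 47.6%. When regions less than 12.5 kb apart were joined, as is done to find super-enhancers, regions that stood alone were kept in 67.6% of cases. Those in groups of 2 were kept in 50.0% (191 of 382) and those in groups of 3 or more in 30.1% (43 of 143). No region was left in 34.6% of the 191 groups of 2, close to the 32.4% of single regions, and in 23 of the 42 larger groups. In the 20 groups with the most covered bases, 17 had no region left, and 2.72% of the covered bases lay in a region with both agents, against 54.7% in an untreated region.

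Some of the largest groups lie at macrophage genes. The group with the most covered bases, 17084 bp in 5 regions, lay at Cd14, the co-receptor for bacterial lipopolysaccharide, and Tmco6, and had no region left. The stretch from Lyz2 to Lyz1, the lysozyme genes, held 4 regions over 15147 bp (chr10:117280679-117305516) and had none left. Groups without a region left also lay at Msr1, the class A scavenger receptor gene (8030 bp), at Gas7 (11172 bp), at Ahnak (8801 bp) and near Lpp (15706 bp) and Hmga2 (11678 bp). Of the groups at histone genes, 2 in the top 20, on chromosomes 3 and 13, kept 2 of 4 regions each, while the group of rank 26, at H3c3 and H2bc3 on chromosome 13 (3 regions, 7285 bp), kept none.

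The widest single lost region, chr5:53536909-53547462 (10554 bp), lay 8317 bp from Rbpj. It was followed by one of 7942 bp at the edge of Fth1, the ferritin heavy chain gene, and one of 7457 bp near Rgs13. Lpp (7039 bp), Pid1 (6924 bp), Rgl1 (6830 bp), Spi1 (6587 bp) and Mitf (6461 bp) lost regions whose centre lay inside the gene. Mitf encodes a transcription factor of osteoclasts and melanocytes. The widest gained regions were at H2ac13, a histone gene (2432 bp), Seh1l, a nuclear pore gene (1817 bp), Sufu, a repressor of Hedgehog signalling (1666 bp), Atp5j, an ATP synthase subunit gene (1560 bp), and Wdr1, an actin disassembly gene (1526 bp). Among shared regions the largest widening was at Mfap3l (381 to 1454 bp), Txnrd1, the thioredoxin reductase gene (512 to 1768 bp), Plekha1 (446 to 1467 bp), Ppp5c (469 to 1513 bp), Rab5if (417 to 1324 bp) and Hnrnpdl (583 to 1846 bp).

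The other lists set the classes apart further. Of kept regions, 86.2% overlapped an untreated BRD3 region and 77.4% a region with I-BET alone. Of lost regions, 46.3% overlapped an untreated region and 7.32% (100 regions) one with I-BET alone. Of the 633 lost regions with an untreated counterpart, 561 had none with I-BET alone. Of gained regions, 60.7% overlapped an untreated region and 50.8% one with I-BET alone, and 93 of the 366 were in no other BRD3 list. Lost regions called in no other BRD3 list numbered 705, of which 33.2% were at gene ends, and the 561 had a median width of 1091 bp. The 100 lost regions with a counterpart under I-BET alone included Spi1, where 948 bp was called with I-BET alone.

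BRD2 regions with RANKL lay more often at lost than at kept BRD3 regions. Of lost regions 28.5% overlapped a BRD2 region with RANKL, of kept regions 15.5% and of gained regions 9.02%. With width held to 1 kb and over the shares were 41.1% of lost (37.1 to 45.2) and 33.4% of kept regions (29.0 to 38.0), whose intervals overlap, and under 1 kb 18.8% (16.1 to 21.8) and 11.6% (10.2 to 13.1). With RANKL plus I-BET, BRD2 regions lay at 4.03% of lost and 2.71% of kept BRD3 regions. There the direction turned with width: at 1 kb and over the shares were 4.23% of lost (2.76 to 6.18) and 9.19% of kept regions (6.68 to 12.3), and under 1 kb 3.87% and 1.28%.

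Protein-coding genes were called bound if a region reached to 1 kb or less from one of their ends. With RANKL 3004 genes were bound and with both agents 2597. Of the 3004, 2297 (76.5%, 74.9 to 78.0) were bound in both lists and 707 were lost, or 23.5%. The 300 genes gained were 11.6% of those bound with both agents. A region that lies between neighbouring genes counts for both, as at Ccl3 and Ccl4 and at Hspd1 and Hspe1. In 31 of the 707 lost genes, the RANKL region itself was kept but what remained lay outside the window. The other 676 had no region left. No such count is given for the 300 gained genes, some of which may have had a RANKL region outside the window. Hnrnpdl is a case. The gene lists below were written with results of these data known, so their shares are read only beside that of all genes.

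**Figure D5:**
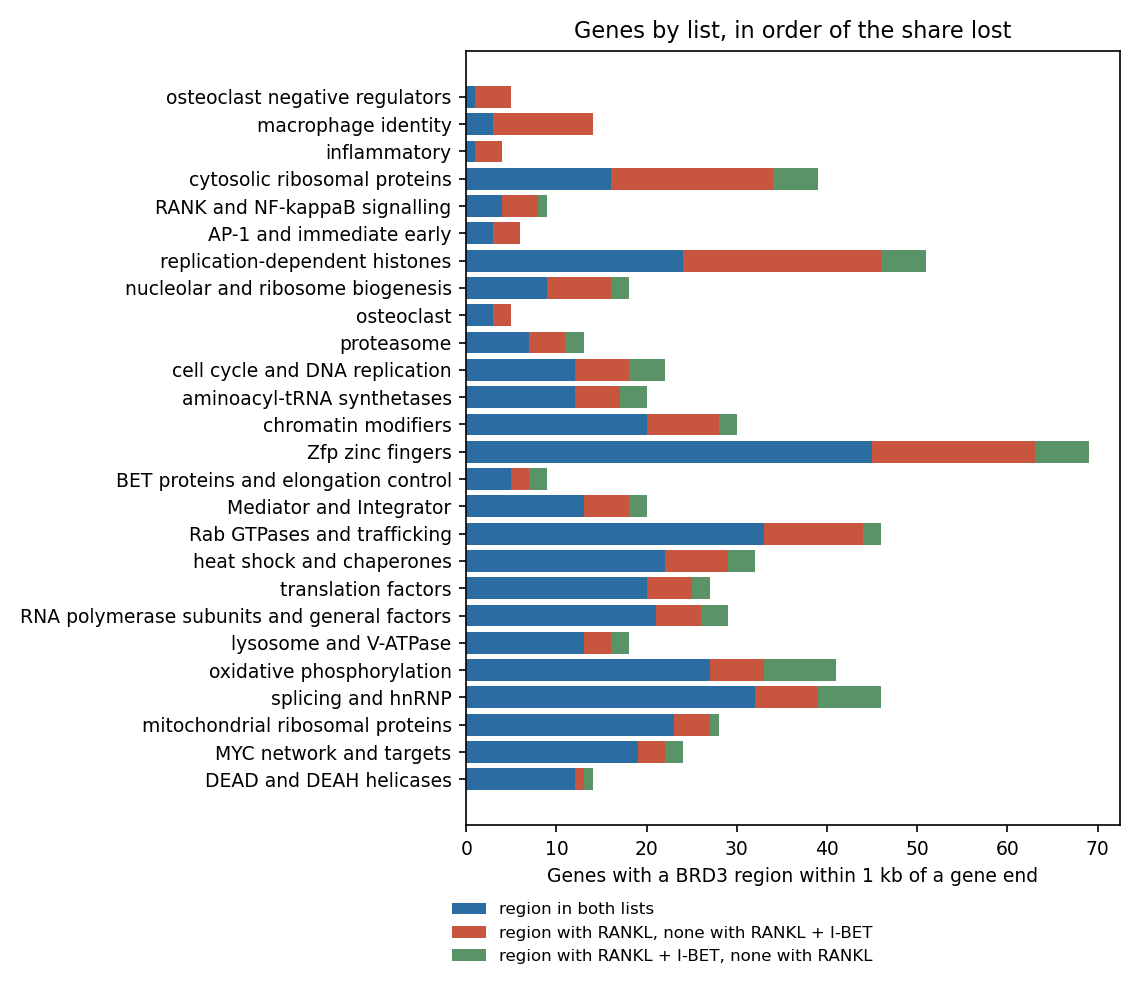
Number of genes of each list with a BRD3 region within 1 kb of a gene end (x axis), split into genes with a region in both lists, with RANKL only and with RANKL plus I-BET only. Lists with at least 3 bound genes are ordered by the share lost, from 80.0% (4 of 5) for negative regulators of osteoclasts at the top to 7.69% (1 of 13) for DEAD and DEAH helicases at the bottom, beside 23.5% of all genes.

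Macrophage identity genes made up one of the lists with the highest share lost: 11 of the 14 bound with RANKL had no region with I-BET added (78.6%, 49.2 to 95.3). Their regions were wide, with a median of 2970 bp. Over all genes, weighted to the same mix of region widths, 52.4% were lost, a share that lies inside the interval of the list. At Spi1, which encodes PU.1, the master transcription factor of myeloid cells, the region chr2:91081201-91087787 ran from before the gene record into its body. It was 4010 bp wide in untreated cells, 6587 bp with RANKL and 948 bp with I-BET alone, with none with both. Csf1r, the receptor for the growth factor M-CSF, had regions of 3095 bp untreated and 3294 bp with RANKL, and none in either list with I-BET. Msr1 had 3109 and 3766 bp and Cx3cr1, the fractalkine receptor gene, 2287 and 2906 bp, also with none in either I-BET list. Regions called with RANKL alone were those at Lyz2 (3935 bp), Cd14 (4485 bp), Tlr2, which senses bacterial lipoproteins (2310 bp), and Cyba, a subunit of the phagocyte oxidase (910 bp). At Cd68, a lysosomal glycoprotein of macrophages, the RANKL region chr11:69662147-69665739 was kept, but of its 3593 bp 786 bp remained, on the side of Mpdu1 and outside the Cd68 window. Counted by regions, 4 of the 14 at macrophage genes were kept. Cebpb and Cebpa, which encode the C/EBP factors of the myeloid lineage, kept regions of 848 bp (1453 with RANKL) and 566 bp (590 with RANKL). Lcp1 kept 545 bp (518 with RANKL) at its gene end.

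The bound genes of osteoclast formation split between kept and lost. Of 30 osteoclast genes found, 5 were bound with RANKL, beside 3004 of all 21887 protein-coding genes. The list was thus not bound less often than genes in general. The regions at Ctsk (cathepsin K, the collagen-degrading protease of osteoclasts, 1799 bp before the gene) and Tyrobp (the adaptor DAP12, 1573 bp) were lost. Fcer1g, the other adaptor of osteoclast co-receptors, had 577 bp with RANKL and 1316 bp with both agents. Of 8 bound genes of RANK and NF-κB signalling, 4 lost their region (50.0%, 15.7 to 84.3, beside 23.5% of all genes). They were Nfkbia, the inhibitor IκBα (1102 bp), Bcl3 (1347 bp), Nfkb1 (362 bp) and Tab3. Rela, the p65 subunit, kept 941 of 956 bp. Map3k14, the kinase NIK, had 605 bp in its window with RANKL and 721 bp with both agents. Over the whole gene with 5 kb on each side, Map3k14 had 2 RANKL regions covering 3000 bp, and only the 721 bp with both agents. Traf3 and Tab1 kept narrower regions, and Relb was gained at 303 bp. Of 6 bound AP-1 and immediate early genes, 3 lost their call (50.0%, 11.8 to 88.2), an interval that also holds the 23.5% of all genes. Fosl2 (2095 bp) and Atf4 (1091 bp) had no region left, and at Zfp36l2, which encodes an mRNA-decay factor, a region of 393 bp (2121 bp with RANKL) was left outside the window. Jund had 1840 bp and then 1745 bp, and Fosb 609 and then 698 bp. In its window, Junb had a region of 761 bp at 1 side of the gene with RANKL and one of 1388 bp over the gene with both agents. Over the whole gene with 5 kb on each side, however, Junb had 2 RANKL regions covering 3291 bp. With both agents the region of 1388 bp was the only one there.

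Most of the bound negative regulators and inflammatory genes were lost, but both lists were small. Of 5 bound negative regulators of osteoclasts, 4 were lost (80.0%, 28.4 to 99.5), among them Zeb2, Sirpa and Lilrb4a. All genes, weighted to the same widths, lost 29.9%, which the interval holds. Over whole genes with 5 kb on each side, 4 of 8 negative regulators were lost, beside 25.2% of all genes. Rbpj, Irf2, Nrros and Socs1 kept a region there. At Zeb2, a transcriptional repressor, the region in the window was 1673 bp with RANKL and 10614 bp untreated. Over the whole gene with 5 kb on each side, Zeb2 had 2 RANKL regions covering 6155 bp and none with both agents. Sirpa, the receptor for CD47, lost a region of 1907 bp, and Lilrb4a, an inhibitory receptor, one of 2121 bp. Socs1, the inhibitor of cytokine signalling, had 602 bp with RANKL and 1238 bp with both agents. Ccl3 and Ccl4, neighbouring chemokine genes with 1 common region of 2362 bp, and Tnf (2009 bp) were lost, and Myd88, the Toll-like receptor adaptor, kept its region (958 and 1030 bp). The region lost at Tnf, chr17:35200199-35202207, reached from the start into the gene. Neither of the 2 bound interferon genes, Irf3 and Ifnar1, was lost.

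Ribosomal protein genes of the cytosol had a high share lost at narrow regions. Of 34 bound with RANKL, 18 were lost (52.9%, 35.1 to 70.2), while all genes, weighted to the same widths, lost 19.9%. None of the 34 shared a region with another member. The lost regions were of ordinary width: Rpl34 had 738 bp, Rps7 752 bp, Rpl32 632 bp, Rps6 510 bp and Rpl11 519 bp, and Rpl41 and Rps4x had 1167 bp each. Where a region was kept it was narrower in 15 of 16 cases, such as Rpl10 (1666 to 552 bp) and Rps29 (1197 to 522 bp). The exception was Rpl7 (645 to 730 bp). Genes gained included Rpl35, Rpl22, Rpl5 and Rpsa. Ribosomal protein genes of mitochondria lost 4 of 27 (14.8%, 4.19 to 33.7), and the difference between these lists was not tested. With the top 50% of each list by score, the mitochondrial genes lost 10 of 16 (62.5%) and the cytosolic ones 15 of 21 (71.4%), beside 53.9% of all genes. Nucleolar and ribosome biogenesis genes lost 7 of 16 (43.8%, 19.8 to 70.1).

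Replication-dependent histone genes had wide regions, and these were lost or narrowed. Of 46 bound genes 22 were lost (47.8%, 32.9 to 63.1; weighted to the same widths, all genes lost 42.8%). The 46 genes share 23 regions, of which 13 were kept, 12 of them narrower. The region over H2bc7, H2ac7, H3c4, H2ac8 and H2bc8 (5336 bp) was kept as 1140 bp at H2ac8 and H2bc8, so that the first 3 genes count as lost. Regions at H2ac11, H4c9 and H2bc11 (3539 bp) and at H3c3 and H2bc3 (3069 bp) had no counterpart. A region of 2432 bp at H2ac13, H2bc13 and H3c10 was called with I-BET added and in untreated cells (3034 bp), but not with RANKL. Histone, snRNA and tRNA genes have near-identical copies, so the call at any one of them is uncertain.

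Genes of growth and energy metabolism lost regions in shares whose intervals hold the 23.5% of all genes. Of 22 bound genes of the MYC network 3 were lost (13.6%, 2.91 to 34.9), namely Phb2, Ppan and Phb. Kept ones include Ncl, the gene for nucleolin (1016 to 573 bp), Npm1, nucleophosmin (979 to 689 bp), Srm, spermidine synthase (1096 to 454 bp), and Odc1, ornithine decarboxylase (776 to 706 bp). Myc itself was gained at 422 bp, and in no other BRD3 list did a region lie in its window. That region, chr15:61989493-61989914, lay inside the gene record (chr15:61985341-61990361). It was within 1 kb of the end with the higher coordinate, not of the other end. Of 33 bound oxidative phosphorylation genes 6 were lost (18.2%, 6.98 to 35.5). Of 35 bound with both agents 8 were gained, among them Cox5b, Uqcrc1, Ndufb4 and Atp5j, beside 11.6% of all genes bound with both agents. Of 13 bound DEAD and DEAH helicase genes 1 was lost, Ddx46, and of 39 splicing and hnRNP genes 7 were lost (17.9%) and 7 gained. Hnrnpdl counts among those gained because its RANKL region of 583 bp, which was kept, lay outside the window. Lysosome and V-ATPase genes lost 3 of 16, namely Cln3, Ctsd and Atp6v0a1. Of 18 bound cell cycle genes 6 were lost (33.3%, 13.3 to 59.0), among them Ccnd1, cyclin D1, whose region of 4622 bp with RANKL (4563 bp untreated) had no counterpart in either I-BET list. Ccna2, Ccnb1, E2f1 and E2f6 were gained.

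Among BET and elongation genes, 5 of 7 kept their region. Besides Brd2 and Hexim1 these were Ccnt2, a cyclin of P-TEFb (779 to 588 bp), Mllt3 (563 to 537 bp) and Supt4a (484 to 558 bp). Nelfe (392 bp) was among those lost, and Nelfcd and Ell, which code for a pausing factor subunit and an elongation factor, were gained. Chromatin modifier genes lost 8 of 28 (28.6%, 13.2 to 48.7), an interval that holds the 23.5% of all genes. The deacetylase genes Hdac1, Hdac2, Hdac6 and Hdac11 were lost, while Hdac3 kept its region (835 to 671 bp). Hdac1, Hdac2 and Hdac6 had no region in untreated cells, and Hdac2 had one of 575 bp with I-BET alone. Of the Sirt genes bound, Sirt6 was lost and Sirt4, Sirt5 and Sirt7 were kept.

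Among noncoding genes with a RANKL region, 195 of 524 lncRNA genes were lost (37.2%, 33.1 to 41.5), beside 23.5% of protein-coding genes. The counts were 13 of 24 for snRNA genes (54.2%, 32.8 to 74.4), 22 of 47 for pseudogenes (46.8%), 10 of 29 for snoRNA genes (34.5%), 13 of 56 for tRNA genes (23.2%) and 6 of 29 for miRNA genes (20.7%). At Malat1, a nuclear lncRNA, the region was 3323 bp untreated, 2599 bp with RANKL, 1770 bp with I-BET and 1678 bp with both. At Neat1, the scaffold RNA of paraspeckles, it was 6435 bp untreated and 3218 bp with RANKL, just beyond the gene record, and absent from both I-BET lists.

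Promoters with a lost region held CGCATGCG less often than those with a kept one, and where the region was wide they had a lower CpG ratio. For 17492 genes with a promoter window in the RefSeq table (250 bases before to 50 after the start), 1814 windows were overlapped in both lists, 526 with RANKL only and 244 with both agents only. The median GC share was 63.3%, 61.0% and 63.3%, against 56.3% over all windows. The CpG ratio (observed over expected) was 0.880, 0.833 and 0.854, against 0.572 over all. Under 1 kb the CpG ratio was 0.868 in lost and 0.880 in kept promoters. The gap was larger for regions of 1 kb and over: 59.0% GC and a CpG ratio of 0.746 in 135 lost promoters, against 64.2% and 0.889 in 300 kept ones.

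Motifs were searched on both strands in the same windows: TGANTCA, known as a site of AP-1 factors, TGACGTCA, the cyclic AMP response element, CACGTG, the E-box of MYC and its relatives, and GAGGAAGT, a site of PU.1 and other ETS factors. Promoter elements of wider use were GGGCGG, the GC box, CCAAT, known to bind NF-Y, TATAAA, known to bind the general factor TBP, CGCATGCG, the core of the NRF1 site, and AAGATGGCG, a site of YY1. None of the 9 contains another. CGCATGCG was in 17.1% of kept, 5.51% of lost and 13.9% of gained windows, against 2.58% of all. With RANKL regions of 1 kb and over it was in 14.7% of 300 kept windows and 0 of 135 lost ones, for which the interval reaches 2.70%; under 1 kb it was in 17.9% and 7.76%. TATAAA was in 5.51% of kept, 9.13% of lost and 2.87% of gained windows, and 13.3% of all. It was in 20.7% of lost and 7.67% of kept windows with a region of 1 kb and over, and in 4.89% and 5.34% under 1 kb. GGGCGG was in 72.1% of kept, 64.8% of lost and 46.2% of all windows. The other 6 differed less: TGANTCA was in 2.92% of kept, 4.18% of lost and 7.01% of all windows, TGACGTCA in 3.14%, 3.99% and 2.22%, CACGTG in 11.7%, 10.5% and 7.83%, GAGGAAGT in 1.87%, 2.66% and 3.22%, CCAAT in 35.6%, 33.7% and 38.9%, and AAGATGGCG in 4.58%, 4.56% and 1.98%. The Tnf stretch printed above, from a lost region of 2009 bp, is a case with TATAAA, and so is Cebpa, which was kept. A match describes the letters in the window, not a bound site.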

How the data were processed

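BRD2 and BRD3 ChIP-seq was done in RAW264.7 cells, 1 library per antibody and treatment, and 8 deposited region lists were read. The submitters' processing notes name mm10/GRCm38, MACS2 2.1.1.20160309, Bowtie2 2.3.4.1 and FastQC. Input libraries were not analysed here. The deposited lists give position, the joined peaks and a score. Every region joins peaks of the sets numbered 3, 5 and 7, numbers that no label explains. The authors' score was used only to rank or filter within a list.

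Overlap, width, position and gene windows were computed with Python 3.11.15, pandas 2.3.3, numpy 2.4.6 and scipy 1.17.1, and checked on simulated intervals. Genes (21887 protein-coding) came from RefSeq GRCm38.p6, whose gene table has no strand or exons, so both gene ends were used. Starts, strands and promoters came from its promoter table, with 1 window per gene, one covered in both lists first. Exact 95% binomial intervals cover counting error only. Genes were named from 31 gene lists, from the 10 widest lost or gained and most narrowed or widened regions, and from regions over 3 kb. Other names (the largest joined groups, noncoding genes) were chosen after their values were seen. The compared regions, gene lists and alternatives were chosen with earlier results of these data known. Other overlap rules, score and width filters and gene windows were tried. Some genes are not reported here.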

Additional observations from a re-analysis of the deposited data

Results flagged for a closer look

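Genes of oxidative phosphorylation were the 1 list of 31 in which the number of bound members moved in opposite directions when I-BET was added with and without RANKL. With RANKL, 33 members were bound without I-BET and 35 with it. Without RANKL, 39 were bound in untreated cells and 28 with I-BET. Over all protein-coding genes the fall was also smaller with RANKL, from 3004 to 2597, than without it, from 3065 to 2130. Each number is from 1 library, and the difference was not tested.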

How the results depend on the processing

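Counting a region within 1 kb as shared moved neither share of regions, and cutting the RANKL list by score to the length of the other left the share kept at 65.2% but gave 34.7% gained, since fewer RANKL regions could overlap. Requiring a reciprocal overlap of 50% gave 57.5% kept, 22.3% gained and a median width ratio of 0.946. Of RANKL regions of 2 kb and over, 6.15% then counted as kept, against 22.2%. With the top 50% of each list by score, 38.1% of regions and 46.1% of bound genes were kept and 48.6% of regions were gained, since each list held fewer regions. With regions of at least 500 bp only, 53.8% were kept and 15.6% gained. The window of 500 bp or 5 kb gave 76.7% and 76.8% of genes kept, and whole genes with 5 kb on each side, chosen after seeing the data, 74.8%. In each setting for regions, those of 1 kb and over were kept less often than narrower ones. In each setting for genes, 68.8% or more of the bound macrophage identity genes were lost. Histone genes lost 29.6% with the window of 5 kb (16 of 54) against 47.8%. Cytosolic ribosomal protein genes lost 46.2% to 71.4%. No paired analysis was possible because each treatment has 1 library. With 1 library per treatment, treatment and library cannot be told apart, and depth is unknown.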
